A study of Mus musculus with 71 samples.

Results

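The loss of metabolic label from mRNAs of untreated mouse embryonic stem cells was followed in 36 of the 71 SLAM-seq libraries of the series, those treated with the solvent DMSO. T coverage is the number of covered T positions summed over reads. Of 21527 transcripts listed, 8234 had a mean T coverage above 1000 in the labelled libraries and were fitted, and 13293 did not. A half-life was kept for 7649 of them (92.9%), where the residual standard error of the fit was at most 0.3 of the label at 0 h, and 585 were above this limit. Rnf111 and Rab13 lay just below the coverage limit with a mean T coverage of 999.6 and 999.8, and Mboat2 just above it with 1000.3.

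The cells were male mESC, which are derived from the blastocyst and stay pluripotent in culture. They were grown in 2i/LIF medium, in which CHIR99021 and PD 0325901 inhibit the kinases GSK3 and MEK and LIF is a cytokine that supports self-renewal. RNA was labelled for 24 h with 100 µM s4U. The cells were in DMSO for the last 6 h of labelling and throughout the chase with uridine, and 4 libraries were made after each of 0, 1, 1.5, 2.3, 3.5, 5.3, 8 and 12 h of chase. A further 4 DMSO libraries came from cells that had received no s4U, and the remaining 35 libraries, treated with the Mettl3 inhibitor STM2457, were not used.

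The s4U (4-thiouridine) that a cell takes up is built into new RNA in place of uridine. Iodoacetamide treatment of the isolated RNA makes reverse transcriptase read it as C, so that labelled RNA carries T-to-C conversions, and once free s4U has been replaced by uridine the conversion rate of a transcript falls as labelled molecules are degraded. How long an mRNA lasts differs widely between genes: transcripts of transcription factors, immediate early genes and signalling regulators are known for fast turnover, which lets their levels follow changes in transcription, whereas transcripts for ribosomes, respiration and core metabolism are known for slow turnover. Fast decay starts in most cases with shortening of the poly(A) tail, and elements in the 3′ UTR recruit the machinery for it, among them AU-rich elements, Pumilio binding elements and microRNA sites.

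The 36 libraries held 4539726 to 7368244 reads (median 5465434), of which 98.0% to 98.8% fell on the 8234 fitted transcripts and 23.5% to 28.8% mapped to several places. At 0 h, a transcript with a half-life carried a median of 80.5 conversions per library, and 18 to 725 from the 5th to the 95th percentile. Markers of pluripotent cells summed to 3790 to 5548 CPM (counted reads scaled to the library total). Of these 10 markers 9 were listed, and 8 were above 10 on average. Markers of the other lineages were low: primitive endoderm summed to 1.15 to 14.8 and fibroblast feeder cells to 4.09 to 21.2 with Postn at 0. The neural list summed to 8.04 to 32.4, but only 2 of its 5 markers were listed, and Nes was above 10 on average. The mesoderm list summed to 9.39 to 82.2, with T above 10 on average. The trophoblast list summed to 99.6 to 183, with Cdx2 and Tfap2c above 10 on average. The part of these lineages in the half-lives was not tested.

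The conversion rate fell slowly until 3.5 h and then abruptly. Summed over all 21527 listed transcripts, the conversion rate of the unlabelled libraries was 0.0814% ± 0.0044 (SD, n = 4) and that at 0 h was 1.37% ± 0.0668, with single libraries at 1.28%, 1.43%, 1.40% and 1.37%. It was 1.24% at 1 h, 1.12% at 1.5 h, 1.15% at 2.3 h and 1.01% at 3.5 h, with libraries of the last at 0.962%, 1.01%, 1.04% and 1.01%. At 5.3 h the libraries stood at 0.523%, 0.496%, 0.572% and 0.545%, and the means of 8 h and 12 h were 0.408% and 0.279%. Thus no library of 5.3 h came near one of 3.5 h, and the fall between them, 0.474 percentage points, was larger than the whole fall from 0 to 3.5 h.

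Among the 7 pairs of neighbouring times, compared by two-sided exact permutation tests with Benjamini-Hochberg adjustment, 1.5 and 2.3 h did not pass the test (the mean was 0.0302 percentage points higher at 2.3 h, adjusted p = 0.457) and neither did 0 and 1 h (adjusted p = 0.0667). The other 5 pairs each had an adjusted p of 0.04 by the exact permutation test, from p = 0.0286, the smallest that 4 against 4 libraries can give. The study's methods describe replicates as independent biological ones, without saying how the cultures of this experiment were separated. Each time of chase is also its own set of harvested samples, so chase time and a difference between harvests cannot be told apart at the step from 3.5 to 5.3 h, on which the half-lives partly rest.

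The half-life of a transcript was taken from its conversion rates, averaged over the 4 libraries of a time, minus the mean of the unlabelled libraries, divided by the value at 0 h, and fitted with a single exponential decay. It includes dilution of label by new RNA as cells grow. The study gives a doubling time for these cells in s4U, but no correction for it was made here. Growth weighs most on the longest half-lives, which therefore do not measure the stability of an mRNA alone. Some of the longest fitted values exceed the doubling time that the study gives. The median half-life was 3.27 h. The middle 50% of transcripts lay between 2.46 and 4.40 h, 90% between 1.58 and 7.48 h and 98% between 1.13 and 11.6 h. Fits were also made in 4 series, each of the labelled libraries with 1 replicate number. All series subtracted the same mean of the 4 unlabelled libraries, so the spread over series leaves out error in the background. In these series the median was 3.47, 3.29, 3.47 and 3.39 h, on average 3.40 h ± 0.0851 (SD, n = 4). For a single transcript the series differed more: the median SD of log2 half-life was 0.52 over series, against 0.69 over transcripts.

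**Figure D1:**
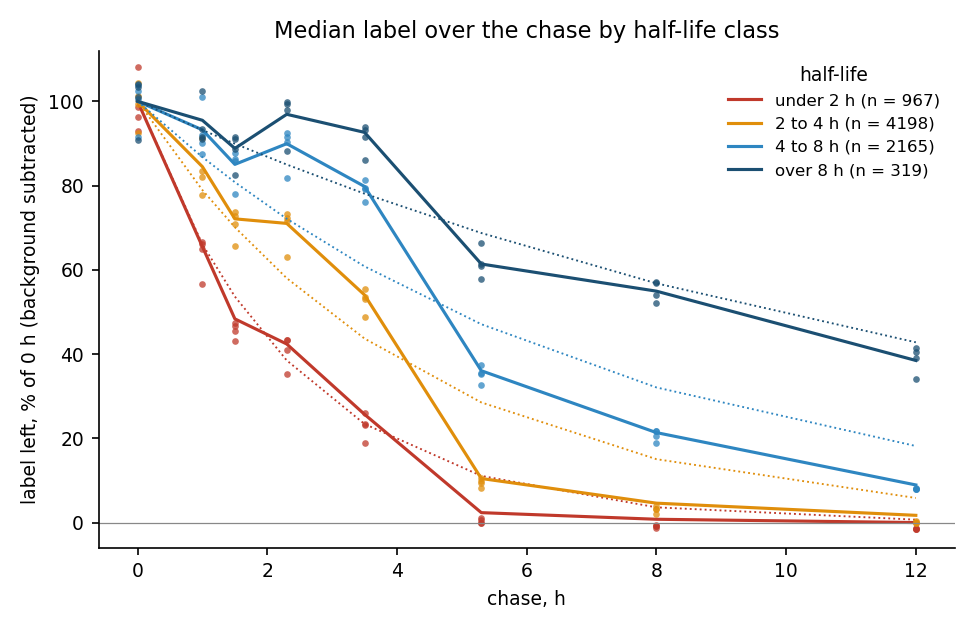
Median background-subtracted conversion rate as % of that at 0 h (y axis) against hours of chase (x axis) for transcripts grouped by fitted half-life; points are the medians in each of the 4 libraries of a time, solid lines the medians of replicate means and dotted lines the medians of the fitted curves. Every group with a half-life over 2 h lies above its fitted curve at 2.3 and 3.5 h and below it at 5.3 h.

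Most transcripts turned over within a few hours: 967 (12.6%) had a half-life under 2 h, 4198 (54.9%) of 2 to 4 h, 2165 (28.3%) of 4 to 8 h and 319 (4.17%) over 8 h. Grouped in this way, which uses the same rates and so describes them only, the median transcript under 2 h kept 48.4% of its label at 1.5 h, 25.7% at 3.5 h, 2.35% at 5.3 h and 0% at 12 h. The median transcript over 8 h kept 88.8%, 92.6%, 61.4% and 38.5% at the same times. Over all transcripts the median was 75.6% at 1.5 h, 75.5% at 2.3 h, 60.6% at 3.5 h, 15.1% at 5.3 h and 3.37% at 12 h. A single exponential did not follow this course: at 3.5 h 83.9% of transcripts lay above their fitted curve, by 12.2 percentage points at the median, and at 5.3 h 5.53% did, with a median of -14.2 percentage points. The half-lives are therefore summaries of the whole chase. Without 3.5 h the median was 3.01 h, and without 5.3 h it was 3.70 h, with ranks of transcripts that correlated at 0.979 and 0.992 with those of the full fit (Spearman).

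**Figure D2:**
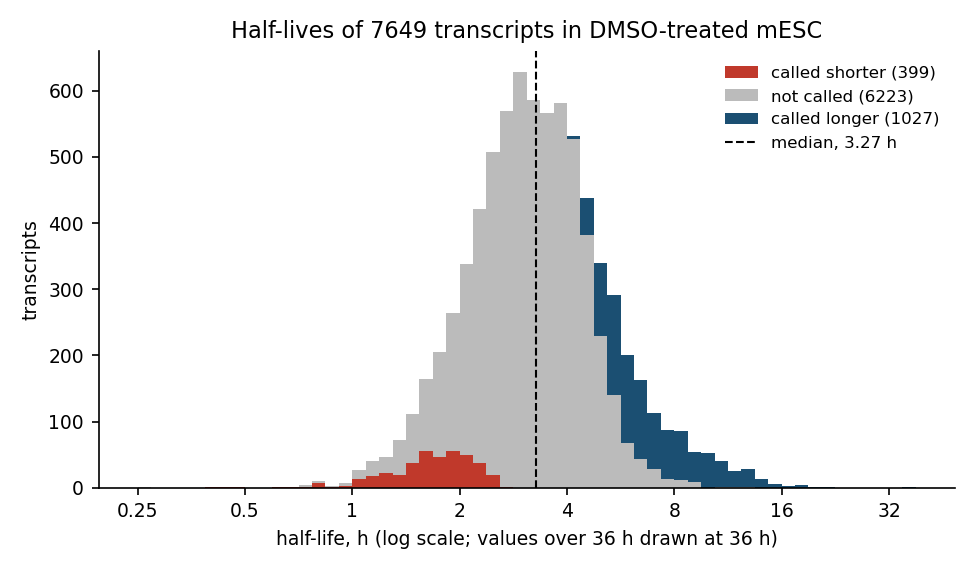
Number of transcripts (y axis) by half-life in h (x axis, log scale) for the 7649 transcripts with a half-life; colours mark those called shorter or longer than the median transcript over the 4 series, and the dashed line marks the median of 3.27 h. The 399 calls on the short side reach up to 2.63 h and the 1027 on the long side start at 4.18 h.

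Each transcript was then compared with the median transcript across the 4 series, by limma on log2 half-lives with Benjamini-Hochberg adjustment. At an adjusted p under 0.05, 399 of 7649 transcripts (5.22%) had a shorter half-life, with a median of 1.73 h, and 1027 (13.4%) a longer one, with a median of 6.39 h. The count on the short side was not stable: it was 161 to 248 with 1 replicate left out, lowest without replicate 3 and below 399 without any of the 4, 257 without 12 h, and 1146 with a free level at 0 h. All 4 series lay on the called side for 98.2% of the shorter and 97.7% of the longer calls. This follows largely from the test, which used the same 4 series, and is no separate support for the calls. What could be called depended on depth. From the lowest to the highest sixth of T coverage, the SD over series fell from 1.09 to 0.25 on the log2 scale, the median half-life rose from 2.64 to 4.56 h, and the share called longer rose from 0.235% to 49.5%, while the share called shorter stayed between 1.65% and 8.08%. Counts of calls in a gene list are therefore given with its coverage where this matters, and its median beside the 3.27 h of all transcripts.

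Short sequence elements known to bind destabilizing factors are shown here for 3 transcripts called shorter, Mycn, Skil and Gbx2, and for Nanog, which was not called, each read from the annotated 3′ UTR on the strand of the transcript (GRCm38, GENCODE M21), with the element in capitals. TGTANATA is the element bound by Pumilio proteins, TATTTAT the core of AU-rich elements, and GCACTT the match to the seed shared by the miR-290 family and its relatives, the most abundant microRNAs of mESC. Mycn holds 2 Pumilio elements and 1 seed match in a 3′ UTR of 913 bases, and Skil all 3 kinds in 3964 bases. Gbx2 has an AU-rich core and, shortly after it, a Pumilio element, in 664 bases, and Nanog a single AU-rich core in 1078. The long-lived Pou5f1 (221 bases), Actb (683 bases) and Dppa5a (184 bases) hold none of the 3. The 3′ UTRs of Pou5f1 and Dppa5a are short, whereas that of Actb is longer than that of Gbx2. Single transcripts also went the other way: the short-lived Ackr3 (1842 bases) and Pcgf5 (524 bases) hold none, whereas the long-lived Rpl14 (260 bases) holds a Pumilio element and Pgk1 (420 bases) an AU-rich core.
Mycn Pumilio element, chr12:12936594-12936621, minus strand: ggaacacttgTGTAAATAccattgatac
Mycn miR-290 seed match, chr12:12936129-12936156, minus strand: tgcaccttagaGCACTTtgaaatacctc
Skil AU-rich core, chr3:31122430-31122458, plus strand: attttggattaTATTTATtgaaacatgac
Skil miR-290 seed match, chr3:31119649-31119676, plus strand: gggcagcctttGCACTTttctttgtttt
Skil Pumilio element, chr3:31120524-31120551, plus strand: tttaatcaacTGTAAATAgcatatctac
Gbx2 AU-rich core, chr1:89928419-89928447, minus strand: gatacactaaaTATTTATtatacaaccct
Gbx2 Pumilio element, chr1:89928397-89928424, minus strand: aaccctacttTGTACATAgatctctatc
Nanog AU-rich core, chr6:122713630-122713658, plus strand: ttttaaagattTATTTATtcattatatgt

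GCACTT pairs with bases 2 to 7 of these microRNAs. The seed, bases 2 to 8, is in capitals below, and it is the same in miR-294, miR-295 and miR-302d, whereas that of miR-290a differs. Their mature sequences were taken from RefSeq (GRCm38.p6), with let-7a, which has another seed, for comparison.
mmu-miR-290a-3p, chr7:3218674-3218697, plus strand: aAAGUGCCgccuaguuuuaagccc
mmu-miR-294-3p, chr7:3220691-3220712, plus strand: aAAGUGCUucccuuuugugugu
mmu-miR-295-3p, chr7:3220815-3220837, plus strand: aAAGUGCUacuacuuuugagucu
mmu-miR-302d-3p, chr3:127545665-127545687, plus strand: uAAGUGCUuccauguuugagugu
mmu-let-7a-5p, chr13:48538239-48538260, minus strand: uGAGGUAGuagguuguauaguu

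Among the gene lists, those of transcriptional control and signalling had the lowest medians, although their members are a minority of the 399 transcripts called shorter. Mycn, a transcription factor of the MYC family that drives growth of pluripotent cells (chr12:12936093-12941914, minus strand), had conversion rates of 1.31%, 1.32%, 1.48% and 1.39% at 0 h. At 3.5 h they were 0.0573%, 0.291%, 0.374% and 0.140%, and at 12 h 3 of the 4 libraries held no conversion at all. The 3.5 h libraries thus overlapped the unlabelled ones, which ranged from 0.0287% to 0.208%. Its half-life was 1.18 h, with 1.24, 1.28, 1.08 and 1.13 h in the 4 series, which is 1.53 ± 0.18 (SE) below the median transcript on the log2 scale (limma, adjusted p = 8.39e-05).

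The immediate early genes, whose transcription rises within minutes of a stimulus, had the lowest median of the 34 lists, 1.63 h. All 17 with a half-life lay below the median transcript and 7 were called shorter. Among these were Jun (1.56 h), a subunit of AP-1, and Btg1 (1.55 h), an antiproliferative factor that recruits deadenylases, whose reads were 81.7% multimapping. Ier2, an early growth response gene, had 1.60 h (adjusted p = 0.00565). Zfp36l2, which itself binds AU-rich elements, was lowest at 1.36 h, but its series ranged from 0.898 to 2.51 h (adjusted p = 0.0575) and 100.0% of its reads were multimapping. Fos and Myc were not measured deeply enough, with a mean T coverage of 116 and 521.

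Feedback regulators and targets of the BMP, Nodal, Notch, Wnt and ERK pathways had a median of 2.03 h, with 6 of 20 called shorter and none longer. They include Skil, a repressor of SMAD signalling (1.41 h, with series from 1.28 to 1.62 h), Dusp6 (1.44 h) and Spry2 (1.64 h), feedback inhibitors of ERK signalling, and Lefty1 (1.90 h), a secreted inhibitor of Nodal. Id1, a BMP target, was at 1.69 h but varied from 0.279 to 2.57 h between series (adjusted p = 0.124). Targets of p53 had a median of 2.36 h and 4 of 17 were called shorter: Bbc3 (1.52 h), which promotes apoptosis, Cdkn1a (1.63 h), the cell-cycle inhibitor p21, Ddit4 (1.64 h), an inhibitor of mTORC1, and Mdm2 (1.71 h), the ubiquitin ligase of p53 itself. Perp, a membrane protein of desmosomes, was called longer at 6.61 h, but its series ran from 3.26 to 30.5 h and its unlabelled rate was 2.06% against 3.35% at 0 h.

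Zinc finger genes named Zfp, a large group made up mostly of KRAB and other C2H2 transcription factors, had a median of 2.05 h over 150 members. Of them 133 lay below the median transcript, 19 were called shorter and only Zfp326 (6.87 h) was called longer. Their median T coverage was 2846, against 5185 for all transcripts, and the sixth of all transcripts in that range of coverage had a median of 2.73 h. Forkhead, Sox, Gata and homeobox factors had a median of 2.44 h, with 5 of 24 called shorter, and Sox4 was the shortest at 0.75 h, with series from 0.25 h, the lowest value allowed, to 1.51 h.

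Host genes of small nucleolar RNAs and other long noncoding RNAs had a median of 2.21 h, and 7 of 16 were called shorter. The list ran from Snhg4 (0.794 h), Mir17hg, the precursor of the miR-17 to miR-92a cluster (1.03 h), and Snhg20 (1.35 h) to Meg3 (3.72 h), which was not called. Malat1, an RNA of nuclear speckles, had 1.19 h, with series from 0.561 to 3.34 h (adjusted p = 0.0637).

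Over all transcripts, the shortest half-lives among called transcripts belonged to Vps9d1 (0.401 h, although 2.08 h in series 1) and Ackr3 (0.409 h), a scavenging receptor for chemokines. The rates of Ackr3 fell from 2.00%, 2.51%, 1.35% and 3.16% at 0 h to 0.395%, 0.601%, 0.465% and 0.338% at 2.3 h. These rest on a mean of 24 conversions per library at 0 h and 4 at 2.3 h, so the order of transcripts at the extreme is uncertain. Next came Pvr (0.641 h), a nectin-like adhesion receptor, Lrp12 (0.687 h), Bcdin3d (0.757 h), an RNA methyltransferase, and Fbxo28 (0.796 h), a subunit of ubiquitin ligases. Usp44 and Clasrp also fell in this range, at 0.434 and 0.467 h, but had high rates without label: Usp44 had 2.48%, 3.12%, 1.77% and 2.60% in the unlabelled libraries against 4.67%, 6.86%, 4.12% and 3.28% at 0 h. Without subtraction of the background they came out at 4.31 and 4.38 h, above the median. In all, 127 transcripts (1.66%) had an unlabelled rate above 25% of that at 0 h, where the median transcript had 4.51%, and they included 11 of the calls on the short side and 20 on the long side. Beside Usp44, Clasrp and Perp, the transcripts named here that are among them are Pvr, Sox4, Ndufb7, Rpl14 and Selenow.

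Most pluripotency transcription factors had half-lives below that of the median transcript. Of 15 pluripotency transcription factors with a half-life, 13 lay below the median transcript and 6 were called shorter, while Pou5f1 was the single one called longer. Klf2 (chr8:72319033-72321656, plus strand), a factor of the naive state, had rates of 1.23%, 1.32%, 1.29% and 1.19% at 0 h. It had already fallen to 0.412%, 0.520%, 0.564% and 0.557% at 2.3 h, and at 5.3 h its 0.0597% to 0.102% overlapped the 0.0257% to 0.0875% of the unlabelled libraries. Its half-life was 1.61 h, with 1.48, 1.55, 1.72 and 1.67 h in the series (adjusted p = 7.4e-06).

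The others called shorter included Gbx2 (1.13 h, series 0.582 to 2.01 h), Zfp281 (1.45 h), Zfp42, also known as Rex1 (1.89 h, with 75.9% multimapping reads) and Klf5 (1.96 h). Nanog (chr6:122707489-122714633, plus strand) fell from 1.28%, 1.34%, 1.34% and 1.41% at 0 h to 0.541%, 0.534%, 0.682% and 0.741% at 3.5 h and 0.267%, 0.126%, 0.117% and 0.242% at 5.3 h. Its half-life of 2.57 h was 2.29, 2.41, 3.03 and 2.54 h in the series, all below the median transcript without passing the test (log2 difference -0.41 ± 0.15 SE, adjusted p = 0.0730). Esrrb, at 2.84 h, and Sall4, at 2.97 h, did not pass it either (adjusted p = 0.501 and 0.350). Klf4 was not covered deeply enough, with a mean T coverage of 381, and Sox2 was not analysed here.

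Pou5f1, which encodes Oct4 (chr17:35506018-35510772, plus strand), had 1.07%, 1.38%, 1.40% and 1.33% at 0 h and still 1.12%, 1.11%, 1.22% and 1.21% at 3.5 h. At 12 h its libraries held 0.385%, 0.647%, 0.561% and 0.482%, far above the 0.0440% to 0.0670% of the unlabelled libraries. Its half-life was 8.68 h, with 11.3, 8.19, 8.27 and 7.78 h in the series (log2 difference 1.37 ± 0.11 SE, adjusted p = 2.51e-06). Of its reads 95.6% mapped to several places, so that transcripts of its pseudogenes could contribute.

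Dppa5a, which encodes an RNA-binding protein of undifferentiated cells (chr9:78367052-78368177, minus strand), kept its label longer still. Its rates of 1.09%, 1.28%, 1.19% and 1.19% at 0 h were 0.755%, 0.661%, 0.778% and 0.718% at 12 h. The half-life was 15.1 h, with 19.3, 11.2, 18 and 14.5 h in the series (adjusted p = 8.2e-08), and 99.9% of reads were multimapping. Over the 18 Dppa and other effector genes of pluripotency the median was 3.74 h and 5 were called longer. In the highest sixth of coverage 4 of 12 were, against 49.5% of all transcripts there. The 5 are Dppa5a, Dppa3 (8.33 h), a maternal factor that protects imprints, Tdh (5.64 h), the threonine dehydrogenase on which mouse ES cell metabolism depends, Dnmt3l (5.17 h), a cofactor of DNA methyltransferases, and Trim28 (4.31 h), a corepressor of KRAB zinc finger proteins. The DNA dioxygenase Tet2 was called shorter at 1.55 h, and its relative Tet1 was at 3.43 h, uncalled.

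**Figure D3:**
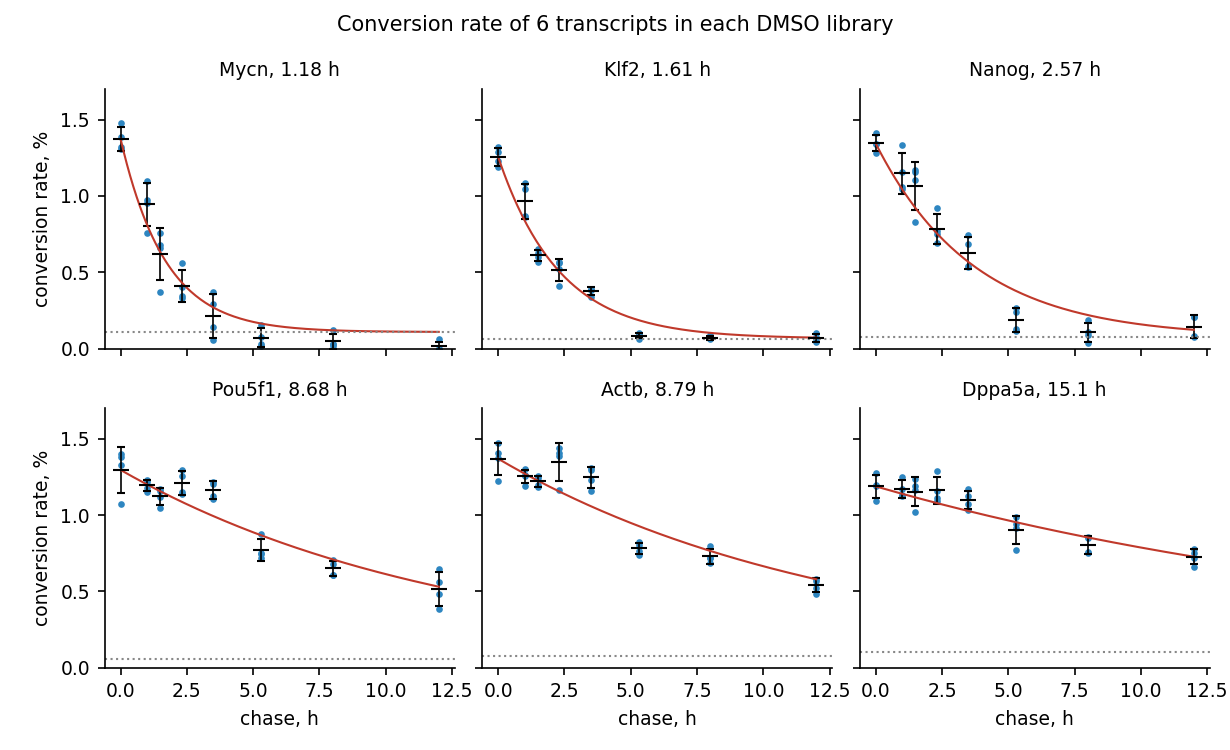
Conversion rate in % (y axis) of 6 transcripts in each DMSO library against hours of chase (x axis), with the half-life in each title; points are libraries, bars mean ± SD of 4, the red line the fitted decay and the dotted line the mean of the unlabelled libraries. Mycn and Klf2 reach the dotted line by 5.3 h, whereas Pou5f1, Actb and Dppa5a lie above it in all 4 libraries at 12 h.

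Chromatin regulators lay mostly below the median transcript with few calls. Histone lysine methyltransferases and demethylases had a median of 2.64 h, with 1 of 39 called shorter and none longer. Polycomb genes had a median of 2.74 h and differed among themselves. The accessory subunits Pcgf5 (0.927 h), Phc3 (1.02 h), Rybp (2.07 h, 99.4% multimapping) and Cbx7 (2.31 h) were called shorter. The histone chaperones Rbbp7 (4.66 h) and Rbbp4 (5.36 h), shared by several complexes, were called longer. Of the catalytic core, Ezh2 was at 3.39 h, with series from 1.83 to 7.59 h, and Suz12 at 2.70 h, neither of them called. The MYC, MAX and MXD network had a median of 2.49 h with 2 of 8 called shorter, Mycn and Mnt (1.00 h), a repressor that competes with MYC for MAX.

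The factors of mRNA decay had a median of 2.71 h. Of the 37 members 2 were called shorter (5.41%, near the 5.22% of all transcripts), among them Smg8 (1.02 h), which acts in nonsense-mediated decay. The poly(A)-binding proteins Pabpc1 (6.55 h) and Pabpc4 (6.76 h, 66.1% multimapping) were called longer (5.41%, below the 13.4% of all transcripts). The other 33 were uncalled. Solute carriers had a median of 2.86 h, with 60 of 95 below the median transcript. Of them 7 (7.37%) were called shorter and 5 (5.26%) longer, beside 5.22% and 13.4% of all transcripts. Ubiquitin-specific proteases (3.12 h over 34) and cyclins (3.01 h over 21) spread around the median transcript.

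Mitosis and spindle genes were centred on it at 3.25 h, with Cdk1 (2.46 h) and Prc1 (2.42 h), a bundler of spindle microtubules, called shorter and the securin Pttg1 (4.80 h) longer. DNA replication genes stood higher, at 4.13 h, with 33 of 41 above the median transcript. In this list 6 (14.6%, near the 13.4% of all transcripts) were called longer, among them Prim1 (5.55 h), and 1 shorter, Cdc6 (1.78 h), which loads the replicative helicase. In the highest sixth of coverage 3 of 11 were called longer, with a median of 4.26 h, below the 49.5% and 4.56 h of all transcripts there. The pathway of cholesterol synthesis held both kinds. Of 22 members 3 were called shorter, among them the feedback regulator Insig1, which retains the SREBP activator in the endoplasmic reticulum (2.33 h), whereas the enzymes Acat2 (5.44 h) and Ebp (6.55 h) were called longer.

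Among the gene lists, the highest medians were those of ribosomal proteins, respiration and the proteasome, whose members are a minority of the 1027 transcripts called longer. Cytosolic ribosomal proteins had a median of 11.3 h, and 77 of 78 were called longer. The exception, Rpl7l1 (3.00 h), encodes a nucleolar relative of Rpl7 that acts in ribosome assembly. In the 4 series the list median was 11.4 h ± 1.23 (SD), and the median member kept 46.3% of its label at 12 h. Rpl26 (15.0 h, series 10.9 to 23 h) and Rpl38 (15.8 h, of which series 1 reached the upper limit of 36 h) were among the longest. Rpl14 had no measurable loss: its rates of 1.21%, 1.49%, 1.78% and 1.46% at 0 h were 1.11%, 1.46%, 1.77% and 1.74% at 12 h, with all 4 series at the limit, although its unlabelled libraries were high too, at 0.457% to 1.08%. Reads of this list were 85.4% multimapping at the median, and copies of these genes are abundant in the genome.

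Nuclear-encoded subunits of oxidative phosphorylation came next, at a median of 8.24 h and 8.13 h ± 0.990 over series. All 75 lay above the median transcript, 71 were called longer, and their reads were 0.960% multimapping at the median. Atp5b, the catalytic subunit of ATP synthase, had 13.2 h (series 16.9, 12.8, 12.2 and 11.9 h, adjusted p = 7.88e-08), and Cox6a1 of cytochrome oxidase 14.3 h. Ndufb7 of complex I stood at 18.2 h, but its series ranged from 11.8 to 36 h and its unlabelled rate was 0.555%. The shortest was Sdhd of complex II, at 4.02 h. Mitochondrial ribosomal proteins, which work in the same organelle, were lower, with a median of 4.22 h and 24 of 75 called longer. Among transcripts of the highest sixth of coverage, of which 49.5% were called longer with a median half-life of 4.56 h, 50 of 52 oxidative phosphorylation subunits and 75 of 76 cytosolic ribosomal proteins were called longer, against 8 of 16 mitochondrial ribosomal proteins.

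Proteasome subunits had a median of 6.03 h with 26 of 35 called longer, and 22 of the 27 in the highest sixth of coverage, up to Psmd9, an assembly chaperone of the list (12.5 h). Glycolytic enzymes (5.63 h) ran from Hk2 (2.24 h), hexokinase 2, to Ldha (8.29 h), Aldoa (8.48 h), Pkm (9.03 h) and Pgk1 (9.33 h). Of them 10 of 18 were called longer, and 8 of the 11 in the highest sixth of coverage. Gapdh stood at 8.2 h and, like Pgk1, was almost wholly multimapping (99.9% and 100.0%). Tricarboxylic acid cycle enzymes had a median of 5.38 h, from Dlst (3.62 h) to Idh3g (10.3 h), with all 19 above the median transcript. Of the 19, 10 were called longer, and 6 of the 8 in the highest sixth of coverage.

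Chaperones had a median of 5.28 h and 23 of 33 were called longer, 21 of the 26 in the highest sixth of coverage, led by Cct7 of the chaperonin that folds actin and tubulin (7.85 h). Hsp90ab1, the constitutive Hsp90, had 6.97 h. The heat-inducible cochaperones Dnajb1 (1.97 h, called shorter) and Bag3 (1.88 h) lay at the other end, and Hspa5 of the endoplasmic reticulum, at 3.59 h, was uncalled. Cytoskeletal genes had a median of 5.05 h with 20 of 31 called longer, and 16 of the 19 in the highest sixth of coverage. Among them Actb (chr5:142903115-142906754, minus strand) had 1.22%, 1.47%, 1.41% and 1.38% at 0 h and 0.526%, 0.482%, 0.570% and 0.584% at 12 h, and a half-life of 8.79 h with 10.4, 7.60, 8.95 and 8.73 h in the series (adjusted p = 3.54e-07).

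Translation factors ranged widely around a median of 4.45 h, with 26 of 59 called longer and 24 of the 38 in the highest sixth of coverage. Eif3i (12.6 h), a subunit of initiation factor 3, and Eef1a1 (11.6 h, 82.5% multimapping), which delivers tRNA to the ribosome, were high, whereas Eif1a (1.81 h) and the helicase Eif4a2 (1.87 h, 82.7% multimapping) were called shorter. Aminoacyl-tRNA synthetases were narrow by comparison, from Aars (3.00 h) to Qars (8.26 h) with a median of 5.05 h. Of them 11 of 20 were called longer, and 7 of the 10 in the highest sixth of coverage. Proteins of hnRNPs and snRNPs had a median of 4.67 h (29 of 65 longer, and 24 of the 38 in the highest sixth of coverage). Extracellular matrix genes had 5.31 h, with 8 of 19 called longer. Their median T coverage was 10791, and 18.8% of all transcripts in the sixth with that range of coverage were called longer. Nucleolar factors had 4.23 h (8 of 35), and in the highest sixth of coverage 4.26 h with 7 of 17 called longer, below all transcripts there. The 10 splicing factors of the SR family lay near the median transcript, at 3.35 h with 2 called longer. In the highest sixth of coverage 2 of 7 were called longer, with a median of 3.36 h, below the 49.5% and 4.56 h of all transcripts there.

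Histone genes whose transcripts are polyadenylated had a median of 4.15 h and 4 of 10 were called longer, against 13.4% of all transcripts. Their median T coverage was 11464. The sixth of all transcripts in that range of coverage had 18.8% called longer and a median of 3.71 h. Replication-dependent histone genes, whose transcripts end in a stem-loop in place of a poly(A) tail, passed the coverage limit in only 4 of 63 cases, with list medians between series that spread by 2.51 h (SD), and no call. Apart from the lists, long half-lives that were also steady over series included Mylpf, a myosin light chain of fast skeletal muscle, at 15.2 h with 17.6, 15.1, 16.9 and 12.4 h. Lamtor2 of the Ragulator complex (21.4 h), the mitochondrial proteins Ech1 (18 h), Chchd6 (17.4 h) and Higd2a (15.1 h), and the selenoprotein Selenow (17 h) had at least 1 series at the limit of 36 h.

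**Figure D4:**
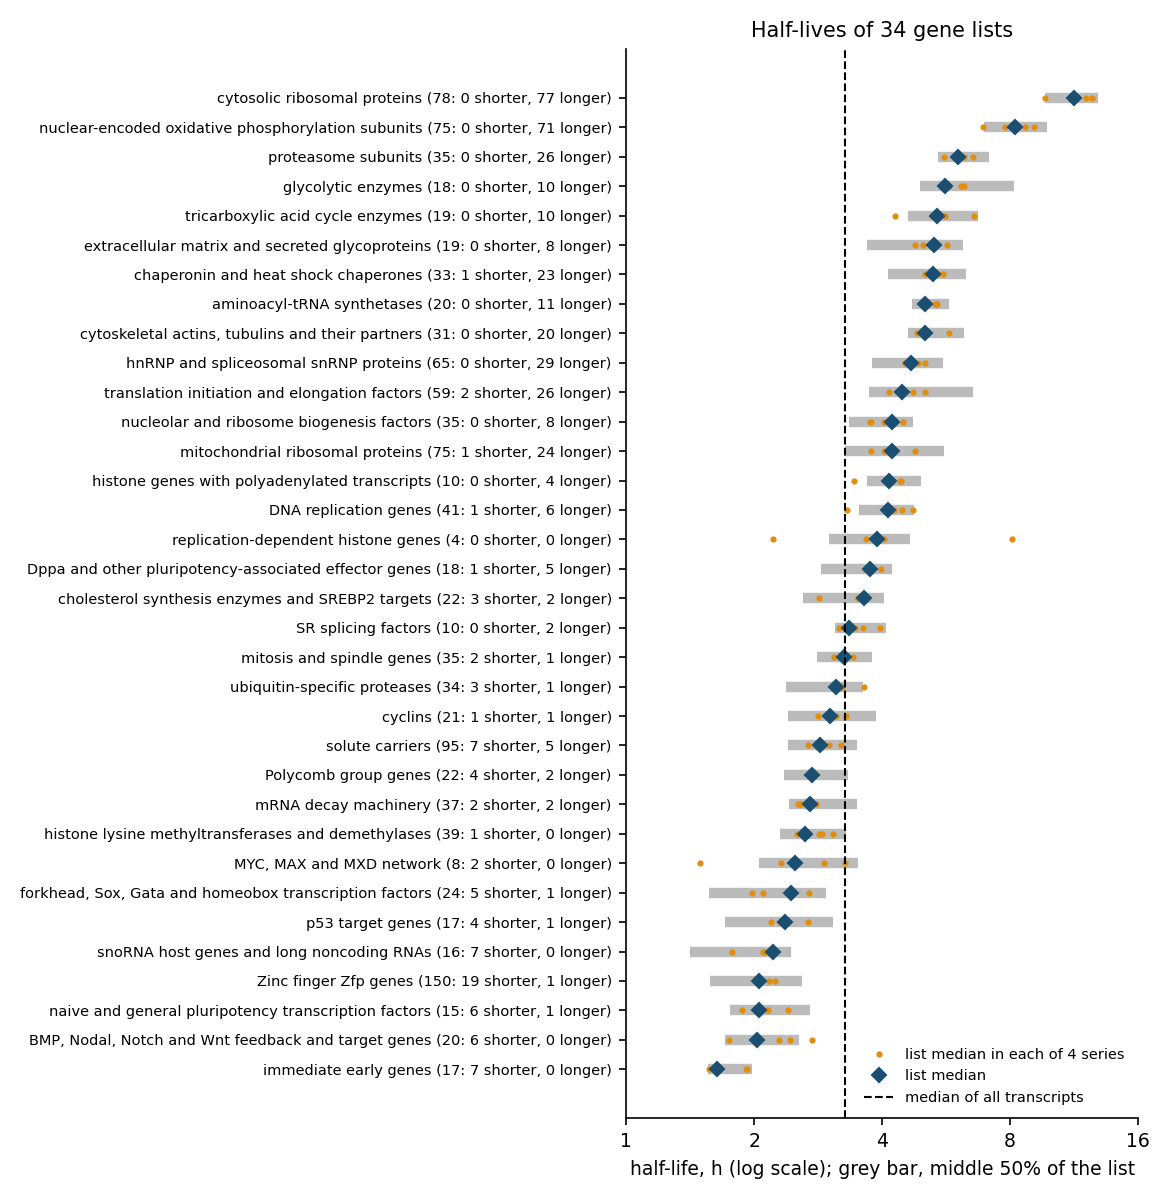
Half-life in h (x axis, log scale) of 34 gene lists (y axis), with the number of members that have a half-life and the numbers called shorter and longer in brackets; diamonds are list medians, grey bars the middle 50% of members, orange points the list median in each of 4 series and the dashed line the median of all transcripts. The lists run from immediate early genes at 1.63 h to cytosolic ribosomal proteins at 11.3 h.

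Loss of label was also tested directly, without a decay model, by limma on the conversion rate of each of the 8234 fitted transcripts in the 36 libraries. The precision was limited, with a median SE of 0.67 on the log2 scale for a difference from 0 h. At 1 h no transcript was called (0.0%; 0 of 8234, against 47 at an unadjusted p under 0.05), while the overall rate had gone from 1.37% to 1.24%. At 1.5 h 1 transcript was called (0.0121%), at 2.3 h 5 (0.0607%), at 3.5 h 433 (5.26%) and at 5.3 h 7242 (88.0%), rising to 7891 (95.8%) at 8 h and 8101 (98.4%) at 12 h. The early counts depended on the setting: with a pseudocount of 5 conversions they were 17 at 1.5 h, 104 at 2.3 h and 2468 at 3.5 h, and that at 3.5 h was 107 to 175 with 1 replicate left out, lowest without replicate 2.

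The 5 transcripts lower by 2.3 h included Klf2 (log2 difference -1.30 ± 0.23 SE, adjusted p = 0.00445), Nufip2, an RNA-binding protein of stress granules (-1.11, 0.0387), Atf4, the transcription factor of the integrated stress response (-0.88, 0.000842), and Ccdc36 (-0.71, 1.71e-06). Ccdc36, the only call at 1.5 h, drew almost all of its reads from multimapping positions, so the source of its signal cannot be told apart from other loci. Of the transcripts lower at 3.5 h, 432 had a half-life, with a median of 1.98 h, and 145 of them were also among the calls on the short side. Beside 5.26% of all tested transcripts, those lower at 3.5 h made up 7 of 20 signalling regulators, 6 of 18 p53 targets, 5 of 17 immediate early genes and 23 of 163 Zfp genes. Lists did not all follow their half-lives: the SR splicing factors had 3 of 10, and the pluripotency transcription factors 1 of 17, near the share of all. Cytosolic ribosomal proteins had 4 of 79, also near that share. There were none of 75 oxidative phosphorylation subunits, 76 mitochondrial ribosomal proteins or 20 aminoacyl-tRNA synthetases.

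At the other end of the chase, 2098 of 8234 transcripts (25.5%) still had a higher conversion rate at 12 h than the unlabelled libraries. They included 77 of the 78 cytosolic ribosomal proteins and 74 of the 75 oxidative phosphorylation subunits with a half-life, 30 of 35 proteasome subunits, 26 of 33 chaperones and 16 of 18 glycolytic enzymes. In contrast they included 2 of 17 immediate early genes, 1 of 15 pluripotency transcription factors, which was Pou5f1, 8 of 150 Zfp genes and none of the 8 genes of the MYC network. A further 154 transcripts were lower at 12 h than without s4U.

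Half-life was related to the structure of the transcript, which the fit did not use. Among 7469 transcripts matched to the annotation, the Spearman correlation of half-life was -0.30 with the length of the 3′ UTR, -0.24 with that of the coding sequence and -0.34 with that of the whole transcript, against 0.03 with the number of exons and 0.07 with the GC content of the 3′ UTR. These are correlations across genes, which are not independent replicates. The median 3′ UTR measured 1443 bases for half-lives under 2 h, 1123 for 2 to 4 h, 608 for 4 to 8 h and 203 for over 8 h, and the median coding sequence 1572, 1496, 1140 and 576 bases. Half-life also rose with T coverage (0.42) and fell with the share of T in the counted window (-0.20) and with the rate at 0 h (-0.21). The relation with the length of the 3′ UTR was seen within each sixth of coverage, from -0.22 in the lowest to -0.42 in the highest.

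The 3 elements shown above were looked for on the transcript's strand in the last 500 bases of the 5123 3′ UTRs that are at least this long, so that length could not decide a match. The AU-rich core TATTTAT was present in 21.3% of those with a half-life under 2 h, 15.1% at 2 to 4 h, 9.93% at 4 to 8 h and 7.79% over 8 h, against 15.4% of all annotated 3′ UTRs of this length. The Pumilio element TGTANATA declined from 20.7% through 15.2% and 8.33% to 3.90% (13.8% of all), and the seed match GCACTT from 18.6% through 13.2% and 11.4% to 10.4% (12.8% of all). Transcripts over 8 h were few here, with 77 of the 5123. Differences in the median were modest: 2.79 h with and 3.08 h without the AU-rich core, 2.72 and 3.09 h for the Pumilio element, and 2.89 and 3.06 h for the seed match, with the same direction in 4 of 4 series for each.

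The share called shorter was 7.95% with and 5.95% without the AU-rich core, 10.1% and 5.60% for the Pumilio element and 7.49% and 6.05% for the seed match. With 0, 1, 2 or all 3 kinds present, the median was 3.17, 2.85, 2.73 and 2.28 h over 3258, 1571, 272 and 22 transcripts. The let-7 seed match CTACCTC, for a microRNA family that is low in mESC, occurred in 2.69% to 3.90% of each class without a trend, and transcripts with and without it had medians of 3.00 and 3.03 h. The share called shorter was 9.09% with and 6.15% without it, a wider gap than for the AU-rich core or the miR-290 seed match. It rests on 165 transcripts with a match. For GGACT, a sequence in which m6A is often placed, the medians with and without were 3.01 and 3.04 h. The related GGACA gave 3.08 and 3.00 h, and likewise GGACC gave 3.10 and 3.00 h. These sequences were counted only at the end of the 3′ UTR. The study states that many m6A sites gather around the stop codon, which this window misses in long 3′ UTRs. The relation of m6A itself to half-life was therefore not tested here. From mapped m6A sites, the study reports significantly shorter half-lives in control cells for transcripts that carry them. The 3′ UTRs with the AU-rich core and the Pumilio element were also poorer in GC, with medians of 41.8% and 41.5% against 44.4% without, and the part of base composition in these differences was not tested. A match of letters does not show that a site is bound.

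**Figure D5:**
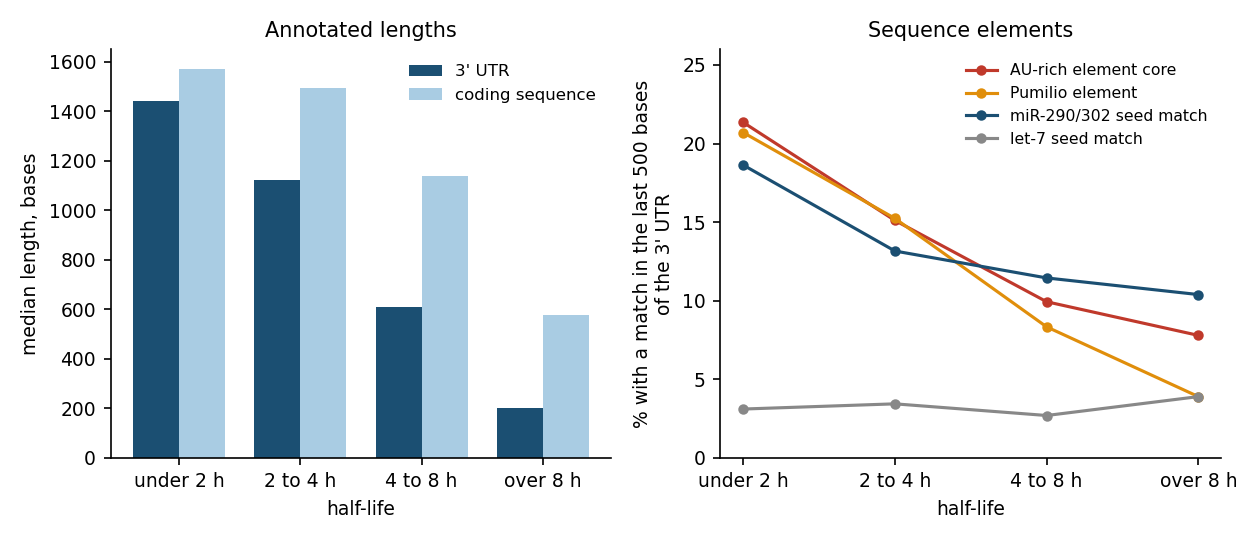
Left, median annotated length in bases (y axis) of the 3′ UTR and coding sequence by half-life class (x axis). Right, % of 3′ UTRs with a match in their last 500 bases (y axis) by half-life class (x axis): the shares of the AU-rich, Pumilio and miR-290 matches are highest under 2 h, at 21.3%, 20.7% and 18.6%, and that of the let-7 match stays between 2.69% and 3.90%.

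By type of gene, 61 noncoding RNAs had a median of 2.60 h. Of them 10 were called shorter and 6 longer, beside 5.22% and 13.4% of all transcripts. All 6 called longer and 5 of those called shorter were among the 33 annotated as processed transcripts, whose median was 3.06 h. The 18 lincRNAs among the noncoding RNAs had 1.93 h, with 3 called shorter and none longer. The 7526 protein-coding transcripts had 3.27 h. The 6 transcribed processed pseudogenes stood at 9.83 h with 5 called longer, although their reads can stem from the genes they were copied from.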

How the data were processed

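SLAM-seq libraries of 3′ ends were mapped by the authors with SLAM-DUNK 0.4.3, which allowed up to 100 mapping positions per read, left out sequence variants found in unlabelled libraries and collapsed the 3′ UTR windows of each gene. The submitters' processing notes name FastQC 0.11.8 and GRCm38.p6. The authors deposited, per gene and library, counts of reads, multimapping reads and conversions and the T coverage, without normalization, and the conversion rate as a fraction. The deposited CPM values were not used, and the CPM of markers were computed from the counts. Conversions are counted in reads without molecular identifiers, as far as the sources used here state. The sample labels gave treatment, time point number and replicate, and the hours of chase came from the study's own account.

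Half-lives were fitted by least squares (Python 3.11.15, numpy 2.4.6, scipy 1.17.1, pandas 2.3.3), over replicate means and in 4 series, whose values were held between 0.25 and 36 h (42 transcripts had a series at the lower and 364 at the upper limit, and for 42 a series could not be fitted and was left out). Half-lives outside 0.67 to 18 h, which the study left out, were kept (7 and 6 transcripts). Series were compared with the mean of the series medians by limma 3.58.1 in R 4.3.3, with variance trended on T coverage. Label was tested by limma on log2 of (conversions + 0.5)/(covered T + 1), over 36 libraries, without subtraction of background. Scripts were tested on simulated data.

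The 54 pairs of replicates differed beyond sampling noise (lowest chi-square per degree of freedom 2.82), so none was counted as a duplicate. The series join libraries by replicate number. Same-numbered libraries did not deviate together transcript by transcript (mean correlation 0.00406, none of 112 above 0.1), while their overall rates did in part (mean correlation 0.478 over 28 pairs of times, from -0.233 to 0.985), and the number was not entered as a block in the main tests. Members and gene lists were chosen with earlier results of these data known. Named genes are the 10 shortest and 10 longest called half-lives (all 4 series on that side, at most 50% multimapping reads, named symbols), the shortest and longest member of each list, fixed examples and the neighbours of limits. Some members are not reported here. All other list members named were chosen after their values were seen. Positions, gene types and 3′ UTRs came from GENCODE M21, with 7601 transcripts placed by symbol. Alternatives covered the limits, times, background, form of the fit, pseudocount, multimapping, replicate block and each replicate left out.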

Additional observations from a re-analysis of the deposited data

Results flagged for a closer look

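Among 109 groups of 4 libraries or 4 series examined, 20 held a value that lay far from the other 3 (Dixon's test at the 95% level), where chance alone gives about 1 in 20 groups, or 5.45. Library size was low in replicate 3 at 5.3 h, with 4562128 reads against a mean of 5179108 in the others, and in replicate 1 at 12 h, with 4539726 against 5410445. The other 18 are half-lives of named transcripts in the 4 series.

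Series 1 stood apart in 9 of them. It was high for Vps9d1 (2.08 h against a mean of 0.310 h in the others), Pou5f1 (11.3 h against 8.08 h), Ccnt2 (3.34 h against 1.56 h), Aars (3.56 h against 2.87 h) and Krt18 (6.13 h against 1.27 h), low for Mga (3.63 h against 4.46 h), and at the upper limit of 36 h for Rpl38 (13 h in the others), Slc44a1 (6.35 h) and Prim2 (6.07 h). Series 2 was high for Snhg4 (2.37 h against 0.527 h) and Hist1h4i (23.6 h against 4.17 h) and low for Ebp (3.76 h against 8.14 h) and Myl6 (6.15 h against 10.8 h). Series 3 was high for Zfp235 (5.60 h against 0.620 h), Srsf5 (3.29 h against 2.56 h), Slc25a25 (3.11 h against 0.370 h) and Eif3i (23.1 h against 10.7 h). Series 4 was low for Plk3 (0.982 h against 1.76 h). The direction of Pou5f1 was the same in all 4 series.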

How the results depend on the processing

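The median half-life was 3.24 to 3.29 h with each replicate left out. It was 3.04 h with a T coverage limit of 100, 3.45 h with the limit of 1000 in every library, 2.95 h with a residual standard error of at most 0.15 and 3.37 h without this limit, 3.01 h without 3.5 h, 3.62 h without background subtraction, 2.33 h for a straight line on the log2 scale and 2.96 h with a free level at 0 h. Of 2 alternatives chosen after seeing the data, it was 3.70 h without 5.3 h and 3.93 h with rates divided by those of the cytosolic ribosomal protein list. The count of transcripts with a shorter half-life (399) was 161 to 248 with each replicate left out, lowest without replicate 3, 257 without 12 h, 803 for the straight line and 1146 with a free level, and the count with a longer one (1027) was 744 to 907 with each replicate left out and 1643 with a free level. With the replicate block, the series centred on their own medians, the counts were 408 and 1045. A slope over the 32 labelled libraries called 1730 shorter and 1787 longer without and 1718 and 1773 with the replicate block, but kept only 170 of the 399, and turned 27 calls. The count lower at 1.5 h (1) was 1 to 2 with each replicate left out, 2 with a T coverage limit of 100 and 3 with the replicate block. With each replicate left out it was 2 to 5 at 2.3 h and 107 to 175 at 3.5 h (433 with all 4 replicates). With a pseudocount of 5 conversions the counts at 1.5, 2.3 and 3.5 h were 17, 104 and 2468. Without background subtraction Usp44 (4.31 h) and Clasrp (4.38 h) were reversed, since their unlabelled rates were high. The cause was not tested for the others. Of 1324 comparisons of named half-lives, 1218 kept direction and call, 92 lost the call, 12 moved and 2 were reversed, and Rpl14 had no value for the straight line. List medians relative to all transcripts stayed on their side in 29 of 34 lists, and changed side for the SR, cholesterol, mitosis, replication-dependent histone and ubiquitin-specific protease lists. Depth limited calls: conversions per transcript and library at 0 h were 80.5 at the median, from reads without molecular identifiers.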
